A study of Arabidopsis thaliana with 40 samples.

Results

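The stress response of leaves of the aox1a:rpoTmp double mutant of Arabidopsis thaliana was set against that of its control wild type. The 12 arrays with the double mutant or the wild type named as its control were used, of 40 in the series, and no measured value chose them. MLD stands for moderate light combined with drought. For each of 22746 probe sets, the interaction is the change of the double mutant (MLD minus untreated) minus the change of the wild type (MLD minus untreated). The groups were the double mutant under MLD, the double mutant untreated, wild type Col0 under MLD and wild type Col0 untreated, with 3 arrays each. MLD plants stood at about 350 µE of light in soil left dry from 4 d before the move, and their leaves are labelled as taken 4 d after it. Untreated plants stayed at 100 µE and were watered. Age is recorded in 3 ways. The sample characteristics give 5 weeks for untreated plants and 4 weeks for MLD plants of both genotypes, the source names give 4 weeks for all, and the treatment protocol gives 4 weeks for wild type and 6 to 7 weeks for the double mutant. Genotype and the protocol's age therefore cannot be told apart. By the characteristics, treatment and age cannot be told apart in either genotype. No line is named for the double mutant. The other 28 arrays hold aox1a and rpoTmp single mutants, each in 2 lines and with a wild type of its own, and enter only where a result is set beside theirs. The aox1a mutants and the wild types of both sets are labelled 4 weeks old, and the rpoTmp mutants 5 weeks in the characteristics and the protocol and 4 weeks in the source names.

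AOX1A is an alternative oxidase, the form most used in leaves, and passes electrons from ubiquinol to oxygen in mitochondria without the cytochrome pathway. RPOTMP is an RNA polymerase related to those of phages that serves both organelles, and the mitochondrial cox1 transcript is among those known to depend on it. Mitochondria that work poorly signal to the nucleus, and this retrograde signal is known to raise nuclear transcripts for alternative NAD(P)H dehydrogenases, glutathione transferases and small stress proteins.

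Intensities are given on the log2 scale, where a difference of 1 is a factor of 2, and many probe sets lie near 2 to 3, the floor of these arrays. A fall into that floor, or a difference from a group at it, can be larger than measured. The first principal component of the 12 arrays held 59.6% of the variance. Its scores were -5.5 to 16.5 in the double mutant under MLD, -56.7 to -41.5 in the untreated double mutant, 98.1 to 113.7 in wild type under MLD and -67.4 to -66.2 in untreated wild type. The stressed double mutant thus lay between the untreated arrays and the stressed wild type. Correlations between arrays of a group were at least 0.9858. The log2 ratio of the 3′ to the 5′ probe set of GAPDH, a measure of RNA integrity, was 0.30 to 0.61 in the double mutant under MLD, 0.39 to 0.42 in the untreated double mutant, 0.40 to 0.65 in wild type under MLD and 0.33 to 0.42 in untreated wild type. The leaf mesophyll markers LHCB4.2, RCA, PSAN and PRK were bright in all 4 groups, and the interaction was called in none of the 4. The phloem marker SWEET11 had an interaction of -1.36, and FMA, the 1 guard cell marker measured, was not called. Their part in the results below was not tested. RPOTMP (AT5G15700) lay at 2.49 to 2.58 on the 6 double mutant arrays, against 2.55 to 2.64 in wild type under MLD and 2.82, 3.51 and 3.86 in untreated wild type. The untreated double mutant was lower by this measure (-0.84, adjusted p = 0.0172), but the probe set is dim and checks the genotype only weakly. No probe set is paired with AOX1A in the table used. In bulk leaves, fewer cells of a type and less RNA per cell cannot be told apart. The labels do not say whether replicates came from separate plants, so p-values measure the spread between these arrays.

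The double mutant answered MLD with fewer called changes than its wild type, and for many probe sets the answer differed between the genotypes. A probe set was called at a Benjamini-Hochberg adjusted p under 0.05 over all 22746. MLD changed 5011 probe sets in the double mutant (22%, with 2313 or 10.2% up and 2698 or 11.9% down) and 9663 in wild type (42.5%, with 4156 or 18.3% up and 5507 or 24.2% down). The interaction was called for 7425 (32.6%), with 3814 higher (16.8%) and 3611 lower (15.9%) in the double mutant, and for 4805 it was at least 1 in size. The difference between double mutant and wild type was called for 8176 probe sets under MLD (35.9%) and for 4489 in untreated plants (19.7%). Beside the interaction, the 2 responses sort these 7425 probe sets. A wild-type rise without a called change in the double mutant was found for 1873 and a wild-type fall without one for 2436. The response was reversed for 1086, of which 484 rose in wild type and fell in the double mutant and 602 did the opposite. A rise was called in the double mutant alone for 368 and a fall for 592. The response ran the same way in both genotypes but was smaller in the double mutant for 737 and larger for 124, and for 209 neither response was called. A response that was not called is not thereby absent.

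**Figure D1:**
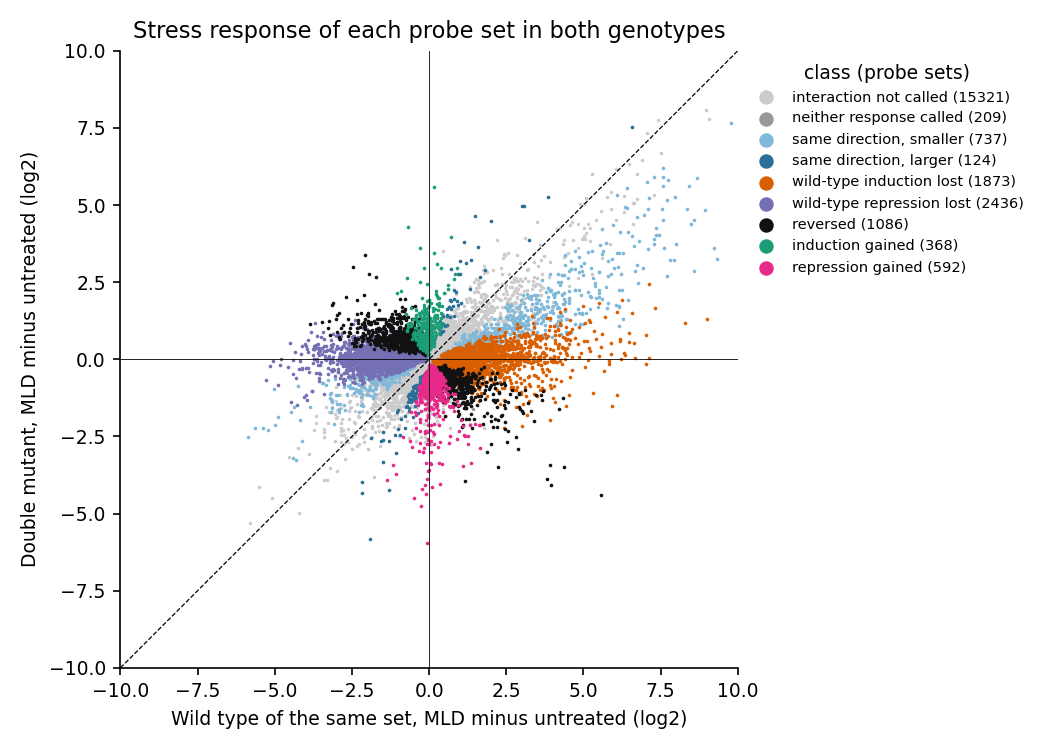
Change with MLD (log2) of each of 22746 probe sets in the double mutant (vertical axis) and in the wild type of the same set (horizontal axis), coloured by class. Points on the dashed line changed equally, and the 1873 and 2436 probe sets of the lost responses lie along the horizontal line at 0.

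Lost responses had more than 1 form. Of the 1873 lost rises, 1119 differed between the genotypes under MLD alone, while 655 were already higher in the double mutant before stress. Of the 2436 lost falls, 1449 differed under MLD alone and 773 were already lower in the untreated double mutant. Of the 592 falls called in the double mutant alone, 288 began from a higher untreated level than in wild type. Background for these counts is the share of all probe sets that were higher (10.1%) or lower (9.61%) in the untreated double mutant. The untreated difference is itself part of the interaction that chose these classes, so nothing is read from the counts beside it.

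Genes of the mitochondrial stress response stood high in the untreated double mutant, and nearly all fell in it with MLD. The interaction was called for 8 of 8 measured genes of this list, all lower, with a median of -2.13 against 0.005 over all probe sets. All 8 were higher in the untreated double mutant than in untreated wild type, and 7 fell with MLD in the double mutant. The shares over all probe sets were 15.9% for a lower interaction, 10.1% for a higher untreated level and 11.9% for a fall. The list was chosen with earlier results of these data known, and the untreated difference is part of the interaction. These counts therefore describe the list and are not independent of each other. NDB2, an external NAD(P)H dehydrogenase of the inner mitochondrial membrane that feeds electrons to ubiquinone, had log2 intensities of 5.52, 6.14 and 6.04 in the double mutant under MLD and 8.03, 7.20 and 7.53 in the untreated double mutant. In wild type they were 7.18, 7.04 and 7.03 under MLD and 4.07, 3.90 and 4.22 untreated. The untreated double mutant was above stressed wild type, and stress moved the 2 genotypes in opposite directions. Stressed and untreated arrays did not overlap in either genotype, which in wild type was a condition for naming the gene. The interaction was -4.71 ± 0.30 (SE, adjusted p = 1.57e-05), made of a fall by 1.69 in the double mutant and a rise of 3.02 in wild type.

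NDB4, a relative of NDB2, was near the floor in wild type under both conditions (2.01 to 2.39). In the double mutant it had 3.51, 5.03 and 3.98 under MLD and 6.79, 7.59 and 7.08 untreated. The mutant arrays did not overlap, which was a condition for naming the gene. The interaction was -2.79 ± 0.48 (SE, adjusted p = 0.0015). NDB3, of the same family, lay at 4.50, 4.15 and 3.92 in the double mutant under MLD and 5.28, 5.54 and 6.01 untreated, against 2.47 to 2.61 in wild type, with an interaction of -1.35 ± 0.26 (SE). The list of alternative respiration held 5 measured genes, and 3 had a lower and 1 a higher interaction (15.9% and 16.8% of all probe sets). NDB1, an external dehydrogenase that prefers NADPH, was the higher one, at 1.41 ± 0.23 (SE, adjusted p = 0.00108). It fell by 1.34 with MLD in wild type and changed by 0.07 in the double mutant. NDC1, a dehydrogenase found in plastids and mitochondria, had an interaction of 0.29 that was not called. The mitochondrial stress list shares NDB2 and NDB4 with this one and holds GSTU25 as well.

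The loci AT2G04070 and AT2G04050 of the mitochondrial stress list were at the floor in wild type and bright in the double mutant. AT2G04070 had 6.84, 7.45 and 6.92 in the double mutant under MLD and 9.79, 9.77 and 9.37 untreated, against 2.62 to 2.92 on all 6 wild-type arrays. Its interaction was -2.55 ± 0.25 (SE, adjusted p = 7.27e-05). AT2G04050 had 9.41, 9.42 and 9.28 under MLD and 10.17, 11.27 and 10.39 untreated in the double mutant, against 2.82 to 2.97 in wild type, with an interaction of -1.33 (adjusted p = 0.0093). Both stayed above wild type under stress, by 4.32 and 6.43 as measured, which are lower bounds because wild type was at the floor. AT2G21640, AT5G51440 and AT5G09570, of the same list, had interactions of -1.35, -1.32 and -1.71. AT5G51440 lost its call when any 1 of 3 arrays was left out: its adjusted p was 0.0518 without array 1 and 0.055 without array 3 of the double mutant under MLD, and 0.0509 without array 1 of the untreated double mutant. AT5G09570 rose by 1.09 in wild type with MLD, and the change of -0.62 in the double mutant was not called.

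UGT76B1, a glycosyltransferase of isoleucic acid and salicylic acid, had the most negative interaction among the named genes whose fall was called in the double mutant alone. It had 2.47, 2.50 and 2.49 in the double mutant under MLD and 10.50, 7.38 and 7.45 untreated. Wild type was at the floor, with 2.52, 2.55 and 2.50 under MLD and 2.62, 2.50 and 2.67 untreated. The transcript was thus bright in untreated double mutants alone, and array 1 stood above the other two. The interaction was -5.88 ± 0.95 (SE, adjusted p = 0.0011), and -4.86 without that array. GSTU25, a tau-class glutathione transferase, had 2.69, 2.84 and 2.65 under MLD and 9.01, 6.04 and 5.78 untreated in the double mutant, against 2.66 to 3.11 in wild type. Again MLD brought the double mutant down to the wild-type level, with an interaction of -4.0 ± 0.97 (SE, adjusted p = 0.00996), and -2.96 without array 1 of the untreated double mutant. GSTU22, another member of that class, had an interaction of -2.73 and -2.02 without the same array. With 16 added to each intensity before the log, GSTU25 and GSTU22 lost their calls (adjusted p = 0.0534 and 0.0657). Of 14 measured glutathione transferases, 2 had a higher and 4 a lower interaction (42.9% called, against 32.6% of all probe sets).

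The next 4 genes were chosen after their values were seen and stand for no list. MSRB9, a methionine sulfoxide reductase, which repairs oxidised methionine, had 2.26, 2.34 and 2.29 under MLD and 5.92, 5.67 and 5.39 untreated in the double mutant, against 2.25 to 2.89 in wild type, with an interaction of -3.27 ± 0.25 (SE, adjusted p = 2.97e-05). BIGYIN, a protein of mitochondrial and peroxisomal division, was at 9.08, 9.11 and 8.73 under MLD and 10.03, 10.07 and 10.08 untreated in the double mutant, against 8.95 to 9.04 in wild type under both conditions. Its stressed level overlapped wild type, whereas its untreated level did not. Hsp70-2, a cytosolic chaperone, rose by 2.43 in wild type and fell by 1.47 in the double mutant, an interaction of -3.90 (adjusted p = 0.00135). Fes1A, a partner of cytosolic Hsp70, had an interaction of -3.47 (adjusted p = 0.0107). Array 1 of the untreated double mutant was the highest for both. Without it the interactions were -3.26 for Hsp70-2 and -2.68 for Fes1A.

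Of the named genes with a reversed response, AT1G57630 had the most negative interaction. It had 3.94, 4.98 and 3.94 in the double mutant under MLD and 9.11, 7.21 and 6.86 untreated, against 8.54, 7.47 and 7.17 in wild type under MLD and 3.69, 3.94 and 3.79 untreated. The untreated mutant and the stressed wild type were high, and the other 2 groups low. The interaction was -7.36 ± 0.82 (SE, adjusted p = 0.000145). AT1G74360 had the same form at -5.77 ± 0.41 (SE). Their annotation here gives no role.

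**Figure D2:**
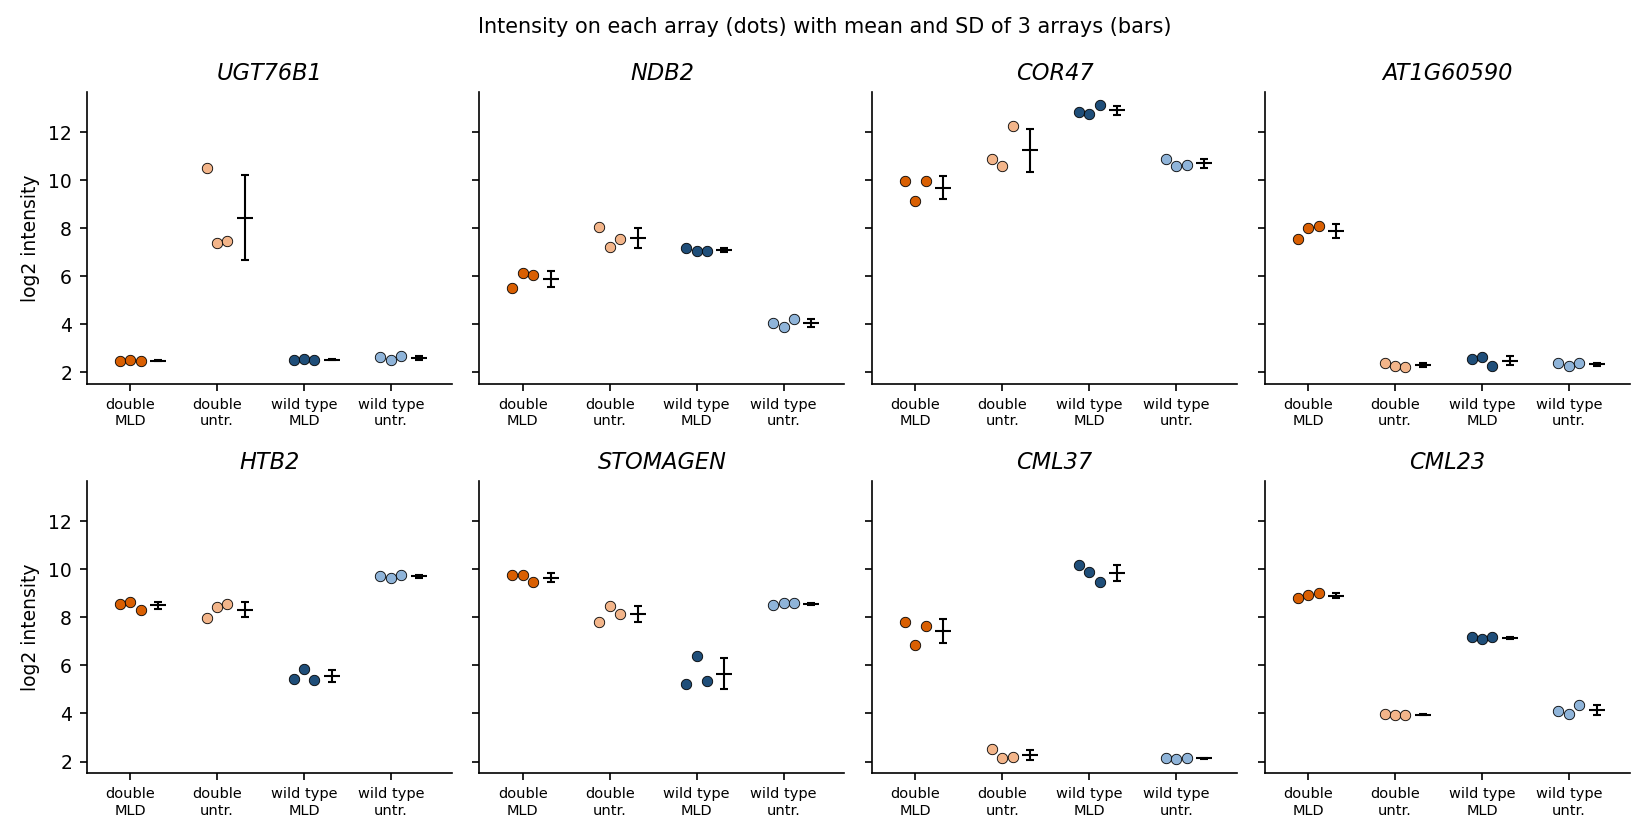
Log2 intensity of 8 genes on each array (dots, 3 per group) with the mean and SD beside them, in the double mutant (MLD, untreated) and wild type (MLD, untreated). UGT76B1 was bright in the untreated double mutant alone and AT1G60590 in the stressed double mutant alone, while HTB2 fell with MLD in wild type and not in the double mutant.

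Drought-inducible genes rose in wild type and not in the double mutant. Of 6 measured genes of the drought and abscisic acid list, none rose with MLD in the double mutant and 5 in wild type. Among all probe sets 10.2% and 18.3% rose. The interaction was lower for 5 (median -2.81), against 15.9% of all probe sets. With the wild type of the aox1a or rpoTmp set in place of this one it was lower for 3 and 1 of the 6. COR47, a dehydrin that protects membranes and proteins during water loss, had 9.96, 9.13 and 9.95 in the double mutant under MLD and 10.89, 10.58 and 12.25 untreated. In wild type it had 12.83, 12.76 and 13.12 under MLD and 10.90, 10.57 and 10.63 untreated. Stressed wild type lay above all other arrays and the stressed double mutant below them, while the untreated groups overlapped. The interaction was -3.76 ± 0.56 (SE, adjusted p = 0.000669). LTI30, another dehydrin, had 7.61, 7.35 and 6.91 in the double mutant under MLD and 7.96, 7.22 and 10.13 untreated, against 10.60, 10.16 and 10.72 in wild type under MLD and 7.33, 7.34 and 7.89 untreated. The double mutant's own groups overlapped, and array 3 of its untreated group was high. Its interaction was -4.12 ± 0.86 (SE, adjusted p = 0.00474), and -3.27 without that array.

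HIS1-3, a linker histone known to be induced by drought, had 4.45, 5.93 and 6.21 under MLD and 7.20, 6.59 and 6.34 untreated in the double mutant, against 7.32, 6.39 and 7.91 under MLD and 3.60, 3.80 and 3.69 untreated in wild type. It was already high in the untreated double mutant (by 3.01 over wild type, adjusted p = 0.00247), and the interaction was -4.69 ± 0.69 (SE). COR15A and COR15B, small plastid proteins that stabilise membranes, had interactions of -1.85 and -1.53, and both were higher by 1.03 and 1.08 in the untreated double mutant than in untreated wild type. XERICO, a RING protein that favours abscisic acid accumulation, was the exception. It fell by 1.11 in the double mutant and by 1.33 in wild type, with an interaction of 0.22 (adjusted p = 0.696). Of 8 dehydrins and late embryogenesis proteins, some listed above, 5 had a lower and none a higher interaction (15.9% of all probe sets were lower). With the wild types of the aox1a and rpoTmp sets 3 and 0 were lower.

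Autophagy genes had lower interactions too. ATG8 proteins coat the membranes that enclose cytoplasm for breakdown in the vacuole. Of 10 measured genes of the list, 7 had a lower and none a higher interaction (median -1.08), against 15.9% of all probe sets lower. None rose with MLD in the double mutant, where 4 fell, and in wild type 5 rose and 1 fell. Among all probe sets, 10.2% rose and 11.9% fell in the double mutant, and 18.3% rose and 24.2% fell in wild type. APG8H, an ATG8 protein, had 9.81, 10.13 and 10.15 in the double mutant under MLD and 10.60, 10.33 and 10.62 untreated, against 11.26, 11.23 and 11.36 in wild type under MLD and 10.25, 10.16 and 10.25 untreated. It rose in wild type by 1.07 and fell by 0.48 in the double mutant, with no overlap in either pair, an interaction of -1.55 ± 0.15 (SE, adjusted p = 6.7e-05). ATG8G had an interaction of -1.97 ± 0.30 (SE) and ATG8B of -1.82 ± 0.37 (SE), both from lost rises, and ATG8F one of -1.15 ± 0.18 (SE), reversed. ATG8D had -1.0. APG8A had -1.33 (adjusted p = 0.0318) and lost its call without any 1 of 6 arrays, with adjusted p between 0.053 and 0.0754: arrays 1 and 3 of stressed wild type, arrays 2 and 3 of untreated wild type and arrays 1 and 3 of the stressed double mutant. With the replicate number as a block its adjusted p was 0.0572.

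Genes of leaf senescence and nutrient recycling followed. WRKY53 and WRKY6, transcription factors of senescence, and SAG101, a lipase-like partner of EDS1 in immunity that was named for senescing leaves, made up 3 of 4 measured genes of that list with a lower interaction, at -2.76, -1.14 and -2.52. Of all probe sets, 15.9% had a lower one. SAG101 had 6.20, 6.49 and 6.74 under MLD and 7.64, 7.25 and 7.28 untreated in the double mutant, against 7.74, 7.54 and 7.39 under MLD and 5.77, 6.04 and 6.04 untreated in wild type. The untreated double mutant overlapped the stressed wild type, and the 2 responses were opposite in sign. Genes chosen after their values were seen gave further lost rises. PPDK, the pyruvate orthophosphate dikinase that serves amino acid remobilisation in ageing leaves, had 5.27, 7.42 and 7.14 under MLD and 8.45, 7.74 and 7.71 untreated in the double mutant, against 10.29, 9.79 and 10.40 under MLD and 6.83, 6.83 and 7.12 untreated in wild type. Its interaction was -4.59 ± 0.69 (SE, adjusted p = 0.000741). The vacuolar processing proteases BETA-VPE and GAMMA-VPE had interactions of -4.21 ± 0.36 and -2.86 ± 0.43 (SE), with wild-type rises of 4.10 and 3.41.

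BZIP60, a transcription factor of the unfolded protein response in the endoplasmic reticulum, rose by 2.75 in wild type. In the untreated double mutant it was already 2.51 above wild type (adjusted p = 0.000127), the arrays under MLD overlapped between the genotypes, and the interaction was -3.19 ± 0.33 (SE). SWEET13, a sucrose exporter, had 3.22, 3.73 and 5.13 in the double mutant under MLD and 2.80, 2.58 and 2.57 untreated, against 9.15, 7.61 and 9.27 in wild type under MLD and 2.87, 3.25 and 2.81 untreated. The wild-type rise of 5.70 was far above the double mutant's 1.38, which was not called. The interaction was -4.32 ± 0.74 (SE). UBC32, an ubiquitin-conjugating enzyme of protein breakdown at the endoplasmic reticulum, had a reversed response with an interaction of -1.15. Of 12 ubiquitin-conjugating enzymes, 5 had a lower and 2 a higher interaction (58.3% called, against 32.6% of all probe sets).

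The most negative interactions among named genes belonged to loci without a symbol. AT5G38710 had 3.73, 3.69 and 3.60 in the double mutant under MLD and 6.98, 4.38 and 4.17 untreated, against 9.12, 7.93 and 9.34 in wild type under MLD and 2.84, 2.85 and 2.88 untreated, with an interaction of -7.45 ± 0.93 (SE). It was -6.55 without array 1 of the untreated double mutant. AT5G12340 had 3.36, 2.39 and 2.41 under MLD and 3.26, 2.40 and 2.42 untreated in the double mutant, against 10.16, 9.33 and 9.13 under MLD and 2.38, 2.38 and 2.49 untreated in wild type. Stressed wild type alone was bright, while array 1 of each double mutant group lay near 3 and the rest at the floor, and the interaction was -7.10 ± 0.49 (SE, adjusted p = 2.07e-05). AT1G80130 had an interaction of -6.62 ± 0.85 (SE).

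Of 6 measured genes of the list of rapid calcium and touch regulators, 4 rose with MLD in the double mutant and 5 in wild type. Among all probe sets 10.2% and 18.3% rose, and 15.9% had a lower interaction. The interaction was lower for 4 and higher for 1 (median -1.95), but with the wild type of the aox1a or rpoTmp set it was higher for 4 and lower for none (medians 3.90 and 4.52). WRKY53, described above, was the member whose rise was lost, and CML41 was not called in either genotype. CML37, a calmodulin-like calcium sensor, had 7.79, 6.87 and 7.65 in the double mutant under MLD and 2.52, 2.15 and 2.19 untreated, against 10.18, 9.90 and 9.49 in wild type under MLD and 2.14, 2.11 and 2.16 untreated. Both stressed groups were far above both untreated groups, and wild type was the higher. The interaction was -2.57 ± 0.35 (SE, adjusted p = 0.000392). CML38, its relative, rose by 4.39 in the double mutant and 8.49 in wild type, an interaction of -4.10 ± 0.58 (SE). STZ, a zinc-finger repressor of stress genes, rose by 5.73 in the double mutant and 7.06 in wild type, and its interaction of -1.32 (adjusted p = 0.0219) lost its call without array 1 of stressed wild type, array 3 of untreated wild type or array 3 of the untreated double mutant (adjusted p 0.0503 to 0.0515) and in a fit of all 40 arrays (adjusted p = 0.308). ORA47, an ethylene response factor that promotes jasmonate synthesis, rose by 7.54 in the double mutant and 6.56 in wild type, an interaction of 0.98 ± 0.27 (SE) that was likewise not called over 40 arrays (adjusted p = 0.22).

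CML23 in the file's naming (AT1G66400), another calmodulin-like protein, rose more in the double mutant. It had 8.79, 8.95 and 9.0 under MLD and 3.96, 3.95 and 3.92 untreated in the double mutant, against 7.18, 7.10 and 7.19 under MLD and 4.12, 3.97 and 4.35 untreated in wild type. The stressed double mutant was above the stressed wild type with no overlap. The untreated double mutant lay slightly below untreated wild type without a called difference, and the interaction was 1.96 ± 0.13 (SE, adjusted p = 1.56e-05).

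Genes of tetrapyrrole synthesis fell with MLD in wild type and mostly had no called change in the double mutant. This pathway makes the precursors of chlorophyll and haem. Of 9 measured genes, 1 fell in the double mutant against 8 in wild type, and the interaction was higher for 7 and lower for 1 (median 1.35). Among all probe sets 11.9% fell in the double mutant and 24.2% in wild type, and 16.8% had a higher interaction. GSA1, the aminomutase that forms 5-aminolevulinate, had 9.50, 9.75 and 9.73 in the double mutant under MLD and 9.30, 9.51 and 9.61 untreated, against 8.28, 8.22 and 8.10 in wild type under MLD and 10.20, 10.13 and 10.14 untreated. The double mutant's groups overlapped and lay between the wild-type groups. The interaction was 2.14 ± 0.13 (SE, adjusted p = 1.56e-05). CHLI2, a subunit of the magnesium chelatase, and HEME2 and HEME1, uroporphyrinogen decarboxylases, had interactions of 2.52, 2.38 and 2.13. HEMB1, which makes porphobilinogen, and CHLM, a methyltransferase of the chlorophyll branch, had 1.35 and 1.12. PORB, the light-dependent protochlorophyllide reductase, fell by 0.52 in the double mutant and by 1.45 in wild type, an interaction of 0.94 that was not called in a fit of all 40 arrays (adjusted p = 0.184).

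HEMA2, a glutamyl-tRNA reductase at the start of the pathway, was the member that ran the other way. It had 7.14, 5.61 and 6.02 under MLD and 5.70, 6.10 and 5.99 untreated in the double mutant, against 9.06, 9.20 and 9.09 under MLD and 5.19 on each of the untreated wild-type arrays. Wild type rose by 3.93 and the change of 0.33 in the double mutant was not called, an interaction of -3.60 ± 0.44 (SE, adjusted p = 0.000234).

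Most histone genes fell with MLD in wild type. Of 7 measured histones, 1 fell with MLD in the double mutant and 6 in wild type, and the interaction was higher for 5 and lower for 1, the drought-inducible HIS1-3. The shares over all probe sets were 11.9% and 24.2% for these falls and 16.8% for a higher interaction. HTB2, a core histone H2B, had 8.54, 8.64 and 8.33 in the double mutant under MLD and 7.97, 8.43 and 8.56 untreated, against 5.45, 5.84 and 5.39 in wild type under MLD and 9.71, 9.64 and 9.77 untreated. Untreated wild type was the highest and stressed wild type the lowest, and the double mutant's groups overlapped between them. The interaction was 4.33 ± 0.23 (SE, adjusted p = 1.09e-05). The H2B genes HTB1, HTB11 and HTB4 had interactions of 3.32, 2.25 and 1.83, and all 4 H2B genes were lower in the untreated double mutant than in untreated wild type, by 0.71 to 1.42 in size. PRL, a subunit of the helicase that licenses replication origins, POLA3, a subunit of the primase complex, and ASF1B, a histone chaperone, were chosen after their values were seen and stand for no list of replication genes. Their interactions were 3.79 ± 0.40, 2.90 ± 0.40 and 2.85 ± 0.41 (SE), each from a wild-type fall with no called change in the double mutant.

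Of 3 measured cytokinin genes, all of which fell in wild type, 2 had a higher interaction from a smaller fall in the double mutant, and none was called with either other wild type. Of all probe sets, 24.2% fell in wild type and 16.8% had a higher interaction. ARR15, a type-A response regulator that is induced by cytokinin, had 2.72, 3.27 and 2.70 under MLD and 3.58, 3.81 and 4.19 untreated in the double mutant, against 2.66, 2.72 and 2.61 under MLD and 7.89, 7.10 and 8.13 untreated in wild type. It was bright in untreated wild type alone, so the interaction of 4.07 ± 0.38 (SE) rests on a level that the double mutant lacked before stress. UGT76C2, a cytokinin glucosyltransferase, fell by 0.85 in the double mutant and 4.24 in wild type (interaction 3.40 ± 0.26, SE). XTH16, a xyloglucan enzyme of the cell wall, had an interaction of 3.58 ± 0.79 (SE). Of 27 measured expansin and xyloglucan genes only 2 had a higher and 2 a lower one (14.8% called, against 32.6% of all probe sets). Dim in all groups (mean log2 under 5) were 17 of these 27. AT3G16670 had 9.56, 9.57 and 9.37 in the double mutant under MLD and 9.20, 9.84 and 9.56 untreated, against 5.70, 6.74 and 3.21 in wild type under MLD and 10.17, 10.43 and 10.27 untreated. The 3 stressed wild-type arrays spread widely, and the interaction was 5.03 ± 0.99 (SE), or 4.03 without array 3 of them.

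Some single genes rose in the double mutant where wild type fell. STOMAGEN, a mesophyll peptide that promotes the formation of stomata, had 9.78, 9.75 and 9.46 in the double mutant under MLD and 7.83, 8.49 and 8.15 untreated, against 5.23, 6.40 and 5.35 in wild type under MLD and 8.52, 8.60 and 8.59 untreated. The stressed double mutant was the highest group and stressed wild type the lowest. The interaction was 4.42 ± 0.40 (SE, adjusted p = 5.7e-05), with a rise of 1.51 and a wild-type fall by 2.91. Cpn60beta2, a plastid chaperonin, rose by 1.32 in the double mutant and fell by 3.01 in wild type (interaction 4.32 ± 0.37, SE). CYTC6A, a cytochrome of the thylakoid lumen chosen after its values were seen, had an interaction of 3.88 ± 0.30 (SE), and SBPASE, a Calvin cycle enzyme, one of 0.95 ± 0.09 (SE), the 1 called gene of 4 measured for carbon fixation. AT5G45670 had the largest positive interaction named, with 7.34, 7.26 and 7.04 under MLD and 3.69, 4.42 and 4.58 untreated in the double mutant, against 3.12, 3.69 and 3.69 under MLD and 6.10, 5.89 and 5.93 untreated in wild type. Each genotype was high under the condition where the other was low, at 5.46 ± 0.33 (SE, adjusted p = 1.56e-05). AT3G21300 had 5.03 ± 0.48 (SE).

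A list of nuclear genes for organelle RNA was made by name (OTP, CRR and MEF). Most are pentatricopeptide repeat proteins, which bind organelle transcripts for editing or splicing, whereas CRR41 and CRR42 are assembly factors of the plastid NDH complex that share only the name. Of 14 measured, 9 of them dim in all groups (mean log2 under 5), 9 had a higher and none a lower interaction (median 1.06), 6 rose in the double mutant and 8 fell in wild type. The shares over all probe sets were 16.8% for a higher interaction, 10.2% for that rise and 24.2% for that fall. The response was reversed for 5, a lost fall for 3 and larger in the double mutant for 1. CRR21, which edits the plastid ndhD transcript, had 8.21, 8.29 and 8.35 in the double mutant under MLD and 6.77, 7.13 and 6.98 untreated, against 6.43, 6.98 and 6.90 in wild type under MLD and 8.18, 7.86 and 7.99 untreated. Stressed double mutant and untreated wild type were high, and the other 2 groups low. The interaction was 2.57 ± 0.21 (SE, adjusted p = 3.98e-05). OTP84, another plastid editing factor, had an interaction of 2.18 ± 0.10 (SE), and the assembly factor CRR41 one of 1.92 ± 0.25 (SE).

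Of 69 measured plastid-encoded transcripts, 20 had a higher and 5 a lower interaction, a share (36.2%) near the 32.6% of all probe sets. With the wild type of the aox1a set 8 were higher and 1 lower, and with that of the rpoTmp set 1 was higher and 4 lower. Ribosomal proteins had 13 of 15 higher (median 1.43) and RNA polymerase subunits 3 of 4 (median 1.09), whereas photosystem subunits had 1 of 20 higher and 4 lower (median -0.26) and the ATP synthase, cytochrome b6f and Rubisco genes none of 13. The NDH subunits had none of 10 higher and 1 lower, and other plastid genes 3 of 7 higher. This grouping was made after the values were seen. The subunit gene rpoC2 of the plastid's own RNA polymerase had 8.02, 7.92 and 7.97 in the double mutant under MLD and 7.54, 7.87 and 7.07 untreated, against 6.22, 7.16 and 6.25 in wild type under MLD and 8.33, 8.33 and 8.82 untreated, with an interaction of 2.43 ± 0.39 (SE, adjusted p = 0.00106). The ribosomal protein gene rps15 had 2.49 ± 0.24 (SE). Both fell in wild type and had no called change in the double mutant. Labelling that starts from the 3′ end was made for nuclear messengers, and how it reports plastid or mitochondrial transcripts was not tested.

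Mitochondrially encoded transcripts gave 4 lower and no higher interactions among 11 measured, all of them lost rises, a share (36.4%) near the 32.6% of all probe sets. With either other wild type none was lower, and 6 of the 11 were dim in all groups. The level before stress differed in sign between them. The cox1 transcript, for a subunit of cytochrome oxidase, had 3.24, 3.58 and 2.72 in the double mutant under MLD and 2.64, 3.45 and 3.29 untreated, against 7.19, 6.76 and 7.45 in wild type under MLD and 5.25, 5.53 and 5.08 untreated. It was below wild type under both conditions, by 2.16 in untreated plants (adjusted p = 0.000776), and the interaction was -1.79 ± 0.40 (SE). The double mutant arrays, from 2.64 to 3.58, lay near the floor, where a small rise could be missed. The cox2 transcript, for another subunit of the same enzyme, had 6.08, 6.05 and 5.86 under MLD and 5.46, 6.11 and 6.11 untreated in the double mutant, against 5.48, 5.57 and 5.42 under MLD and 3.72, 3.19 and 3.76 untreated in wild type. It was above wild type on every array under both conditions, though under MLD the difference of 0.51 was not called (adjusted p = 0.0727), and the interaction was -1.83 ± 0.28 (SE). The nad9 transcript of complex I, higher by 2.39 in the untreated double mutant, had -1.88 ± 0.36 (SE).

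**Figure D3:**
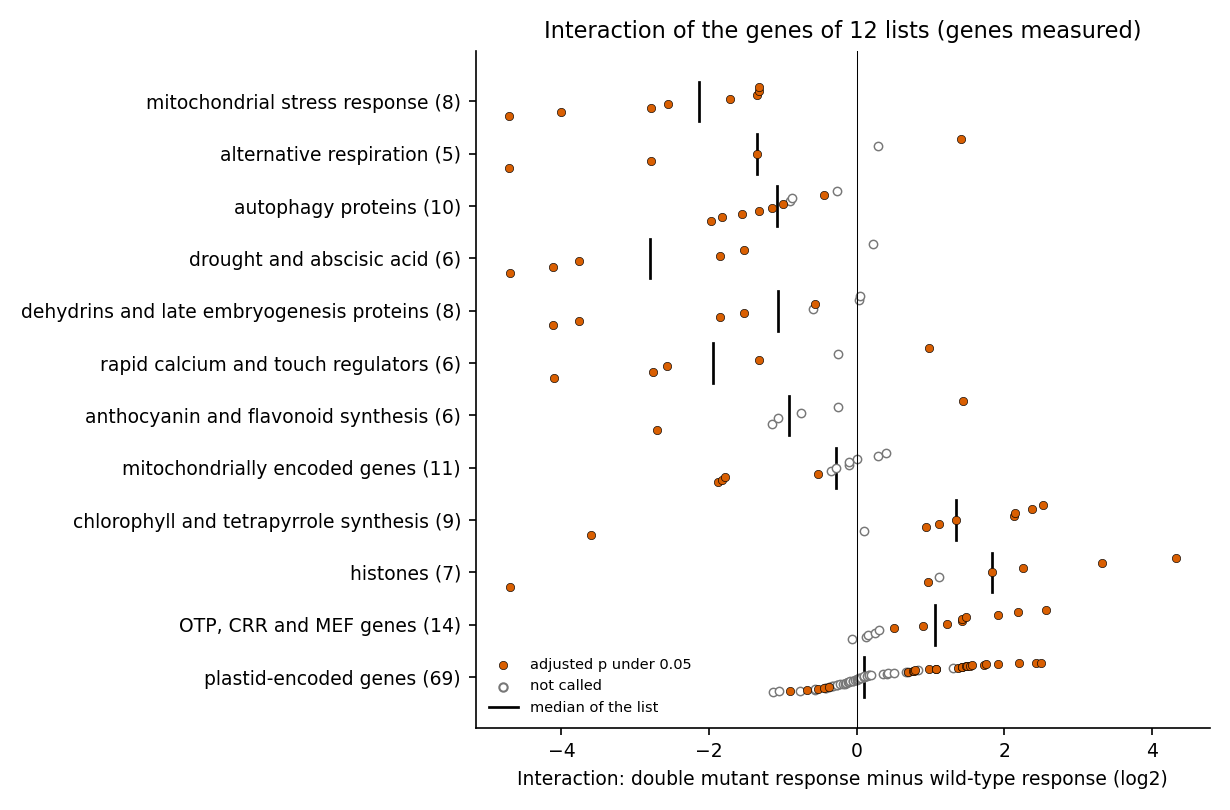
Interaction (log2, horizontal axis) of the measured genes of 12 lists, filled where called and open where not, with the median of each list as a bar and the number measured in brackets. The mitochondrial stress genes all lie below 0, and most histones, tetrapyrrole genes and OTP, CRR and MEF genes above it.

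Rises and falls found in the double mutant alone were fewer. AT1G60590 had 7.54, 8.00 and 8.10 in the double mutant under MLD and 2.40, 2.27 and 2.22 untreated, against 2.26 to 2.62 on the wild-type arrays. It left the floor in the stressed double mutant alone, at 5.43 ± 0.20 (SE, adjusted p = 2.89e-06). AT1G23205 had an interaction of 4.97 ± 0.53 (SE) of the same form. PDF1.2b, a defensin of the jasmonate and ethylene pathway, had 5.59, 6.52 and 6.52 under MLD and 3.27, 3.21 and 3.30 untreated in the double mutant, against 3.08, 4.56 and 3.03 under MLD and 3.20, 3.09 and 3.23 untreated in wild type. The stressed double mutant was above all other groups (interaction 2.57 ± 0.55, SE, adjusted p = 0.00534). PDF1.2, its close relative, rose by 3.52 in the double mutant, with an interaction of 3.07 ± 1.2 (SE) that was not called (adjusted p = 0.0822). It was called without array 2 of stressed wild type (4.13, adjusted p = 0.00319). The paralogs can share probes. AGL24, a MADS-box promoter of flowering, had 5.23, 5.76 and 5.56 under MLD and 3.45, 3.48 and 3.46 untreated in the double mutant, against 4.39 to 5.06 under MLD and 4.29 to 4.53 untreated in wild type, an interaction of 1.79 ± 0.25 (SE). It was below wild type before stress and above it after. Of 40 MADS-box genes measured, 2 had a higher and 2 a lower interaction (10% called, against 32.6% of all probe sets). Dim in all groups were 34 of the 40.

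Some responses were stronger in the double mutant. LHCB4.3, a minor light-harvesting protein, rose by 2.91 in the double mutant and 1.82 in wild type, an interaction of 1.1 ± 0.18 (SE, adjusted p = 0.00113). It was lower by 0.88 in the untreated double mutant, and the stressed groups overlapped. AT1G52200 fell by 5.84 in the double mutant and by 1.92 in wild type (interaction -3.92 ± 0.45, SE).

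Pigment genes rose with MLD in both genotypes. Of 6 measured genes of anthocyanin and flavonoid synthesis, 5 rose with MLD in the double mutant and 5 in wild type (10.2% and 18.3% of all probe sets). The interaction was higher for 1 and lower for 1 (16.8% and 15.9% of all probe sets). It was lower for 4 with the wild type of the aox1a set (median -3.23) and called for none with that of the rpoTmp set. UF3GT, a glycosyltransferase of anthocyanins, had 5.98, 7.05 and 7.39 in the double mutant under MLD and 1.97, 2.00 and 2.05 untreated, against 7.75, 6.55 and 8.49 in wild type under MLD and 2.00, 2.12 and 1.99 untreated. The stressed groups overlapped, and the interaction of -0.76 ± 0.66 (SE) was not called (adjusted p = 0.476). AT4G14090 of the same list had -1.07 (adjusted p = 0.489). DFR, the dihydroflavonol reductase, rose by 5.27 in the double mutant and 7.97 in wild type, an interaction of -2.70 ± 0.56 (SE, adjusted p = 0.00428). UGT78D1, a flavonol glycosyltransferase, had 1.44 ± 0.34 (SE).

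How far these interactions rest on the wild type of this set was read from the wild types of the other sets, fitted with all 40 arrays. MLD changed 9663 probe sets in the wild type of this set, in the fit of this set's own arrays alone. The wild type of the aox1a set had 1986 (8.73%) and that of the rpoTmp set 1620 (7.12%), in the fit of 40 arrays. The gap between these counts thus joins a difference of wild type with a difference of fit. The 3 wild-type responses differed: this one minus that of the aox1a set was called for 5766 probe sets (25.3%) and minus that of the rpoTmp set for 5947 (26.1%). Minus the mean of both it was called for 29.8%. The lost rises had a median wild-type change of 1.37 here, against 0.24 and 0.20 in the wild types of the aox1a and rpoTmp sets, and the lost falls had -1.24 here against -0.23 and -0.23. The single mutants, on arrays that did not define the classes, moved more. Of the 1873 lost rises, 64.3% rose in the aox1a mutants and 56.2% in the rpoTmp mutants, against 24.7% and 21% of all probe sets. Of the 2436 lost falls, 57.7% fell in the aox1a mutants and 55.4% in the rpoTmp mutants, against 21.3% and 19.1% of all.

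**Figure D4:**
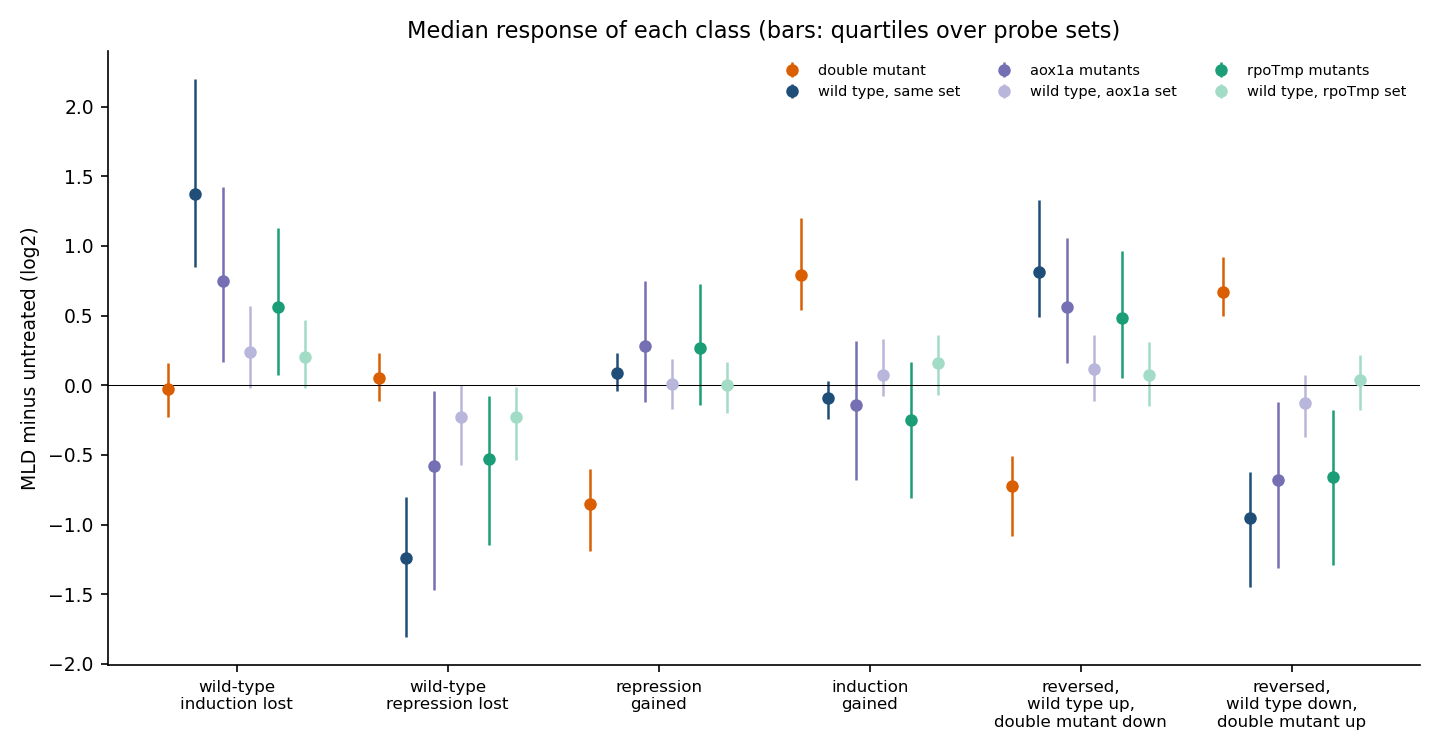
Median change with MLD (log2) of 6 classes of the interaction in the double mutant, the wild type of its set, the single mutants and their own wild types, with quartiles over probe sets as bars. The first 2 values of each class define it, while the other 4 come from other arrays, and there the single mutants lie nearer than their wild types to the wild type of this set in the lost and reversed classes.

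The interaction with another wild type in place of this one was called for 2713 probe sets (11.9%) with that of the aox1a set, 5.33% higher and 6.6% lower. With that of the rpoTmp set it was called for 2302 (10.1%), 4.49% higher and 5.63% lower. Of the 7425 interactions called with this set's wild type, 803 kept call and sign with both others. With the wild type of the aox1a or rpoTmp set, 9.88% and 5.34% of the lost rises kept both. The lost falls kept 7.27% and 5.09%, and falls called in the double mutant alone 59.1% and 54.7%. Responses smaller in the double mutant were called with the opposite sign for 30% and 30.3%. The wild type of this set took part in defining these classes. Untreated wild type is labelled 5 weeks old in this set's characteristics and 4 weeks in those of the other two, so set, wild type and this age label cannot be told apart in the exchange. With the wild type of the aox1a or rpoTmp set, 5 and 5 of the 8 mitochondrial stress genes had a lower interaction and 7 and 6 of the 10 autophagy genes. Some genes at the floor in this wild type had like values with all 3 wild types. UGT76B1 had -5.96 with either, GSTU25 -4.20 and -4.19, AT2G04070 -2.70 and -2.68, and NDB4 -2.98 and -3.0 (wild type of the aox1a set first). NDB2 had -2.52 and -2.91, less than -4.71 but called with both, and AT1G57630 -3.87 and -3.35. AT5G51440 had -0.94 with either and lost its call (adjusted p = 0.209 and 0.224). The interaction of AT1G60590 was 6.76 and 6.17, and AT5G45670 had 3.26 and 3.19. ATG8G kept a call at -1.27 and -1.12, SAG101 at -0.83 and -1.06 and PPDK at -2.21 and -3.07. ATG8B (-0.47 and -0.39), ATG8D (-0.51 and -0.56), WRKY53 (-1.14 and -0.69), WRKY6 (-0.33 and -0.55) and BZIP60 (-0.58 and -0.54) lost their calls with both. Of the 4 senescence genes, 1 was lower with either wild type. COR47 and LTI30 were called with the wild type of the aox1a set (-2.11 and -3.37) and not with that of the rpoTmp set (-1.40 and -2.03).

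Most of the named lost falls lost their call in this exchange. None of the 7 histones was called with either wild type, and 3 and 0 of the 9 tetrapyrrole genes and 3 and 3 of the 14 OTP, CRR and MEF genes were higher. HTB2 had 1.05 and 0.20, HTB1 -0.02 and 0.11, ASF1B 0.26 and 0.42, and PRL 1.75 and 0.74, none called. HEME2 and GSA1 were called with the wild type of the aox1a set (1.43 and 1.00) and not with that of the rpoTmp set (0.59 and 0.65). OTP84 kept its call at 1.06 and 0.65. Genes that rose in the wild type of this set alone went further. AT5G12340, with a wild-type change of 7.13 here against -0.01 and 0.02 in the aox1a and rpoTmp sets, had an interaction of 0.03 and 0.00. HEMA2 had 0.33 and 0.39, and cox2 0.46 and 0.01. Of the rapid regulators, CML37 turned from lower to higher, at 5.17 and 5.16, as did CML38 at 3.27 and 4.28 and STZ at 4.53 and 4.76. Their wild-type changes were 7.72, 8.49 and 7.06 here. In the wild type of the aox1a set they were -0.01, 1.12 and 1.21, and in that of the rpoTmp set 0.00, 0.11 and 0.97. CML23 kept its sign at 4.48 and 4.75 and ORA47 at 6.58 and 7.36.

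**Figure D5:**
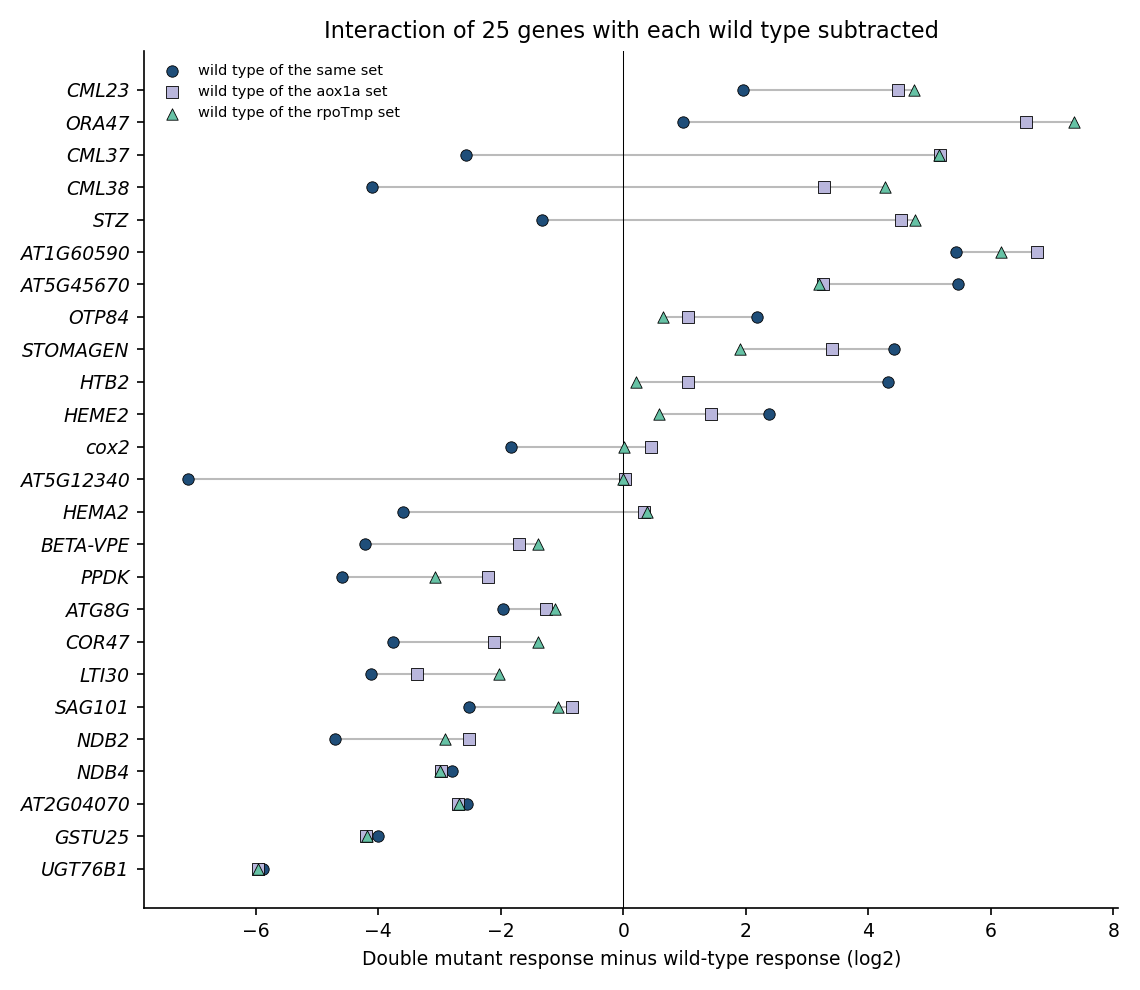
Double mutant response minus wild-type response (log2) of 25 genes, with the wild type of the same set, of the aox1a set or of the rpoTmp set subtracted. The 3 values nearly coincide for UGT76B1, GSTU25, AT2G04070 and NDB4, and lie on both sides of 0 for CML37, CML38 and STZ.

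The interaction of the double mutant was last set against those of the single mutants, each taken against its own wild type. The aox1a interaction was called for 26.3% of probe sets and the rpoTmp interaction for 19.9%. That of the double mutant differed from the aox1a interaction for 8336 probe sets (36.6%) and from the rpoTmp interaction for 7755 (34.1%). UGT76B1, at -5.88 in the double mutant, had -0.05 in aox1a and 0.45 in rpoTmp, and differed from them by -5.83 ± 0.85 and -6.34 ± 0.85 (SE, adjusted p = 5.6e-06 and 2.09e-06). NDB2 had 0.66 and -0.02 in the single mutants, with differences of -5.37 ± 0.42 and -4.69 ± 0.42 (SE). MSRB9 had 0.15 and 0.60, with differences of -3.42 and -3.88. AT2G04070 had -0.21 in aox1a and 1.29 in rpoTmp, where the interaction was called, and NDB3 had 0.06 and 2.26, so rpoTmp and the double mutant differed in sign for both.

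Other interactions, each against the wild type of its own set, had opposite signs in single and double mutants. HIS1-3 had interactions of 4.84 and 4.62 in aox1a and rpoTmp against -4.69 in the double mutant, COR47 2.19 and 2.06 against -3.76, and ATG8G 1.25 and 1.54 against -1.97. HTB2 had -2.20 and -2.94 against 4.33, STOMAGEN -2.97 and -4.18 against 4.42, and AT1G60590 -1.96 and -5.10 against 5.43. Each of these single-mutant interactions was called, and each differed from that of the double mutant, with the largest adjusted p at 2.59e-05 (STOMAGEN against aox1a). The double mutant's own change was not called for HTB2 (0.18), HIS1-3 (-1.18) or ATG8G (-0.63), and was called for COR47, STOMAGEN and AT1G60590. These signs rest in part on the wild type of this set. With the wild types of the aox1a and rpoTmp sets HIS1-3 had -1.26 and -1.40 in the double mutant (adjusted p = 0.48 and 0.399), and HTB2 was not called with either. STOMAGEN had 3.41 and 1.91 and, like COR47, was called with the wild type of the aox1a set alone.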

How the data were processed

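Leaf RNA was labelled and hybridised to 1-colour Affymetrix arrays, 1 array per sample. The deposited table gives 1 intensity per probe set and array on a linear scale. The submitters' processing notes name Affymetrix Expression Console, MAS5, Partek 6.5 and GCRMA without the order or role of each, so the background correction and array scaling behind the deposited intensity are unknown here. Of 22810 probe sets, 64 controls were left out. The log2 of the intensity was taken with no value added. Through the platform's annotation, 13513 probe sets have 1 gene, 503 several and 8730 none, and 13502 of the 13513 matched the gene table, for 13355 genes. Where a gene had several probe sets (147 genes), the brightest stood for it.

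limma 3.58.1 in R 4.3.3 fitted the 4 group means over 12 arrays (lmFit, eBayes), with Benjamini-Hochberg adjustment over 22746 probe sets and a threshold of 0.05. Values that involve other sets come from 1 fit of all 40 arrays, with the 2 lines of a single mutant averaged. On simulated data of 22746 probe sets, 68.0% of 100 interactions of size 1 and 87.0% of 100 of size 2 (log2) were recovered, with 13 false calls. No other simulated probe set held an interaction, while 7425 were called in the data. These rates therefore check the fit and do not carry over to the calls above. Genes were named by rule: among called probe sets whose brightest group averaged 5 or more (log2) and no overlap of conditions in the genotype with the larger response, up to 15 most positive and 15 most negative, up to 4 per class and up to 2 each way per list, and the mutated genes. The text prints 55 genes by the rule, 27 other list members and 11 chosen after their values were seen. The 58 lists and these genes were chosen with earlier results of these data known. Alternatives were an added 16 before the log, a filter on dim probe sets, quantile normalization, centring on the 75th percentile, a trended robust prior, the replicate number as a block, each array left out, all 40 arrays in 1 fit, the wild types of the other sets and a minimum size of 1. The number of arrays limits the precision.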

Additional observations from a re-analysis of the deposited data

Results flagged for a closer look

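For 59 of 93 genes the response of wild type to MLD in the double mutant's set differed from the mean wild-type response of the aox1a and rpoTmp sets, tested as a difference in the fit of all 40 arrays (limma, adjusted p under 0.05, with 29.8% of all probe sets called). Each value below is that difference on the log2 scale, and a positive one means a larger rise or smaller fall in the set of the double mutant. Of the 93 genes, 88 had a called interaction, which holds the same wild-type change. Their choice thus favours such differences, and the 59 is not read against the 29.8%. The cause was not tested, and set and wild type cannot be told apart. Groups of 3 arrays are too small to be tested for an outlying array.

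Among rapid regulators the differences were large, with CML38 at 7.88, CML37 at 7.73, ORA47 at 5.99, STZ at 5.97 and CML23 at 2.65. Loci without a symbol gave 7.12 for AT5G12340, 5.04 for AT1G80130, 4.39 for AT5G38710, 3.75 for AT1G57630 and 2.44 for AT1G74360, and on the other side -2.23 for AT5G45670, -3.29 for AT3G16670 and -3.29 for AT3G21300. Drought genes gave 3.36 for HIS1-3, 2.01 for COR47, 1.46 for COR15B and -1.77 for XERICO. Genes of senescence, autophagy and proteolysis gave 2.66 for BETA-VPE, 2.51 for GAMMA-VPE, 1.95 for PPDK, 1.85 for WRKY53, 1.57 for SAG101, 1.39 for ATG8B and 0.63 for APG8H. Stress and transport genes gave 5.13 for SWEET13, 1.07 for SWEET11, 2.63 for BZIP60, 2.00 for NDB2, -0.95 for NDB1, 1.90 for Hsp70-2, 1.35 for Fes1A and 2.15 for DFR.

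The H2B genes and PRL, ASF1B and POLA3 fell further in the wild type of this set, with differences of -3.71 for HTB2, -3.27 for HTB1, -2.64 for HTB11, -1.91 for HTB4, -2.55 for PRL, -2.51 for ASF1B and -1.55 for POLA3. Tetrapyrrole genes gave -1.55 for CHLI2, -1.36 for HEME2, -1.32 for GSA1, -1.23 for HEME1 and -0.67 for HEMB1, against 3.96 for HEMA2. Cytokinin and wall genes gave -4.70 for ARR15, -2.58 for UGT76C2 and -2.33 for XTH16. Plastid proteins and OTP and CRR genes gave -2.78 for CYTC6A, -2.46 for Cpn60beta2, -0.60 for SBPASE, -1.33 for OTP84, -1.27 for CRR21 and -1.27 for CRR41. Organelle transcripts gave 2.23 for nad9, 2.06 for cox1, 2.06 for cox2, -1.58 for rps15 and -1.31 for rpoC2.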

How the results depend on the processing

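In the fit of 12 arrays the interaction was called for 7425 probe sets, and for 4805 with a minimum size of 1. In the fit of all 40 arrays it was called for 2713 with the wild type of the aox1a set and for 2302 with that of the rpoTmp set. The lower counts thus join a change of wild type with a change of fit. Leaving out 1 array gave 6698 to 7449 interaction calls, 4143 to 5150 for the double mutant's response, 8699 to 9820 for the wild-type response, 7126 to 8142 for the difference under MLD and 3422 to 4794 for the untreated one. The classes ran from 1721 to 1919 (lost rises), 2195 to 2588 (lost falls), 279 to 386 (gained rises), 508 to 624 (gained falls) and 801 to 1162 (reversed). The comparisons with the single mutants' interactions gave 7928 to 8314 (aox1a) and 7258 to 7692 (rpoTmp), and those with their wild types 5028 to 5818 and 5244 to 5980. Same-numbered arrays of different groups did not deviate together (18 pairs, r between -0.09 and 0.17, with 1 over 0.1), so the numbers were not taken as pairs. With the replicate number as a block, 7332 interactions were called. The block moved no count of calls by over 1.5 times and, among the 93 genes in the text, changed the calls of APG8A (lost, adjusted p = 0.0572) and PDF1.2 (gained, adjusted p = 0.0346) and no other. PDF1.2 was also called with 16 added (adjusted p = 0.0411) and with the filter on dim probe sets (adjusted p = 0.0317), and AT5G09570 lost its call over 40 arrays (adjusted p = 0.134).

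Centring on the 75th percentile moved the median wild-type response to -0.116 from -0.042 and its calls to 11720 from 9663. The share of rises among these calls moved to 33.3% from 43.0%. For the untreated difference the share of higher calls moved to 40.3% from 51.3%. Of the 88 called genes in the text, 84 kept direction and call over all 40 arrays with this set's own wild type. The other 4 lost the call. In the same fit with the wild type of the aox1a set, 44 kept direction and call, 30 lost the call and 14 changed sign. With that of the rpoTmp set the counts were 33, 41 and 14. With the aox1a set's wild type the sign changed for CML37 (5.17), CML38 (3.27), STZ (4.53), GAMMA-VPE (0.50), SWEET13 (0.70), AT5G12340 (0.03), HEMA2 (0.33), HTB1 (-0.02), HTB4 (-0.10), HTB11 (-0.38), ARR15 (-0.20), cox1 (0.42), cox2 (0.46), nad9 (1.09) and, uncalled before, XERICO (-1.67), while UF3GT (-3.55), AT4G14090 (-3.43) and PDF1.2 (5.12) gained calls. With the rpoTmp set's it changed for CML37 (5.16), CML38 (4.28), STZ (4.76), COR15A (0.47), COR15B (0.58), SWEET13 (0.93), AT5G12340 (0.00), HEMA2 (0.39), HTB4 (-0.06), HTB11 (-0.40), ARR15 (-1.05), DFR (1.91), cox1 (0.12), cox2 (0.01) and, uncalled before, XERICO (-1.42) and UF3GT (0.49). The cause was not tested.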

Other observations

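Most members of 5 large gene families not counted above had no called interaction. Of 47 measured UDP-glycosyltransferases, which attach sugars to hormones and secondary metabolites, 5 had a higher and 8 a lower interaction. Of 29 serine carboxypeptidase-like proteins, 6 had a higher and 2 a lower one, and 3 of the 29 fell with MLD in the double mutant against 8 in wild type. Of 15 tetraspanins, membrane organisers, 1 was higher and 5 lower. Of 12 ubiquitin-specific proteases, which remove ubiquitin, 2 were higher and none lower, and 1 fell with MLD in the double mutant against 6 in wild type. Of 9 plant U-box ubiquitin ligases, 2 were lower and none higher, and 3 rose with MLD in the double mutant against 6 in wild type. Dim in all groups were 27 of the UDP-glycosyltransferases, 17 of the serine carboxypeptidase-like genes and 10 of the tetraspanins. So were 4 of the ubiquitin-specific proteases and 3 of the U-box ligases. A missing call in a dim gene is not read as a missing interaction. Set beside 32.6% called over all probe sets, none of these shares is read as particular to its family.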
